A study of Macaca fascicularis with 9 samples.

Results

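Neurotransmitter receptors were followed in single nuclei of brain tissue from 9 female cynomolgus monkeys, as the set of genes whose symbols begin with the gene names of the glutamate (GRIA, GRIK, GRIN, GRID, GRM), GABA (GABR, GABBR), glycine (GLR), acetylcholine (CHRM, CHRN), serotonin (HTR) and adrenaline (ADRA, ADRB) receptors. The rule used symbols and no measured value, and it found 82 genes among 29128 features, of which 14893 carry a symbol. The matrix held 79994 nuclei. The authors' cell types were oligodendrocytes, oligodendrocyte precursor cells (OPCs), astrocytes, myeloid cells and neurons, with nuclei named unknown beside them, in 17 numbered clusters.

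Each group had 3 animals. The ASO group received a single intrathecal dose of 4 mg of an antisense oligonucleotide against the nuclear RNA MALAT1. The OTV group received OTV:MALAT1, an oligonucleotide on a carrier that binds the transferrin receptor, in 4 intravenous doses of 30 mpk given biweekly. The saline group was given saline by vein 4 times. Brains were collected 2 weeks after final dosing, and neither age nor genotype is given in the sources used here. The groups share species, sex and the labelled region, which is thalamus. OTV and ASO differ in molecule, route, dose and number of doses, so these cannot be told apart in a contrast of the 2 groups. ASO and saline differ in route and number of doses as well as in the oligonucleotide, and these cannot be told apart either. The nuclei came from frozen tissue and were sorted by DNA stain alone, so no cell type was selected.

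Ionotropic receptors are ion channels built from several subunits and open when the transmitter binds, whereas metabotropic receptors signal through G proteins. AMPA, kainate and NMDA receptors carry fast excitation, and GABA-A and glycine receptors carry fast inhibition. OPCs are known to receive synapses from neurons and to hold AMPA and GABA-A receptors. Astrocytes are known for GABA-B, metabotropic glutamate and adrenergic receptors.

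The animals had 20.0 to 98.9 times 1000000 UMIs in 2956 to 11992 nuclei, with medians of 2579 to 7791 UMIs per nucleus, and the lowest median was that of OTV replicate 3. MALAT1, the targeted RNA, made up 6.11%, 6.36% and 5.38% of UMIs in the saline animals, 4.51%, 4.15% and 5.60% in the ASO animals and 3.80%, 3.25% and 3.12% in the OTV animals. ASO replicate 3 thus lay within the saline range, and every OTV animal lay below it. Barcode sequences present in more than 1 library belonged to 1522 nuclei (1.90%). All values below are given in the order of replicates 1, 2 and 3 of each group.

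The labelled region did not hold alike for all animals. A regional score, the mean log2 level of telencephalic regulator genes minus that of diencephalic ones in astrocytes, was 0.63, -2.58 and 3.74 in the saline animals, -2.82, -1.25 and 3.33 in the ASO animals and -3.23, -3.40 and -2.66 in the OTV animals. Saline replicates 1 and 3 and ASO replicate 3 were above 0 and the other 6 animals below it. In nuclei named neurons, PDE10A, a phosphodiesterase abundant in striatal projection neurons, was at 1999, 354 and 6511 UMIs per 1000000 UMIs of that type (CPM) in the saline animals, 264, 1234 and 4383 CPM in the ASO animals and 358, 254 and 503 CPM in the OTV animals. It was highest in the same 3 animals. SLC17A6, the glutamate transporter of thalamic relay neurons, was at 1.25, 82.9 and 0.246 CPM in saline, 13.9, 0 and 0 CPM in ASO and 31.8, 33.3 and 6.49 CPM in OTV. PRKCD, also listed as a thalamic marker, went the other way and was highest in the same 3 animals as PDE10A. It was at 11.99, 0 and 21.3 CPM in saline, 0, 7.48 and 14.7 CPM in ASO and 0, 0.653 and 0 CPM in OTV. The 6 listed thalamic markers summed in neurons to 109 to 399 CPM in saline, 116 to 223 CPM in ASO and 138 to 716 CPM in OTV. These ranges overlapped. The animals labelled thalamus thus differed in markers of region, and results are also given for the 6 animals with a score below 0, where saline is left with 1 animal, assumed to vary like the animals of the other groups. A call lost in that fit does not show a smaller change. This choice was made after seeing the data.

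Of the 82 receptor genes, 67 had at least 100 UMIs in the matrix. The 15 below that were CHRM2, CHRM3 (72 UMIs), CHRM4, CHRM5, GRM2, GRM6, GABRA6, GABRP, GABRQ, CHRNA4 (91 UMIs), CHRNB4, ADRA2B, HTR1B, HTR1D and HTR3C, which include all 4 muscarinic receptor genes. CHRNA7 and ADRB1 were not analysed here. Each of the 67 genes was placed in the cell type of its highest mean CPM over the 9 animals. Neurons were highest for 35 genes, OPCs for 13, astrocytes for 11, myeloid cells for 6 and oligodendrocytes for 2. The highest type was the same in 9 of 9 animals for 17 genes. Means and ratios for neurons weight all 9 animals alike, though ASO replicates 1 and 2 held only 18 and 17 neurons. In 21 genes the highest type was less than 1.5 times the second. This ratio does not by itself decide whether an order is settled. GLRB, at 1.41 times the second, was highest in OPCs in 9 of 9 animals. CHRNA6, at 8.43 times, was highest in neurons in only 2 of 9, and GRIN2C, at 2.58 times, in astrocytes in 3 of 9. Because the authors clustered the nuclei on expression, levels between types are a description and were not tested.

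**Figure D1:**
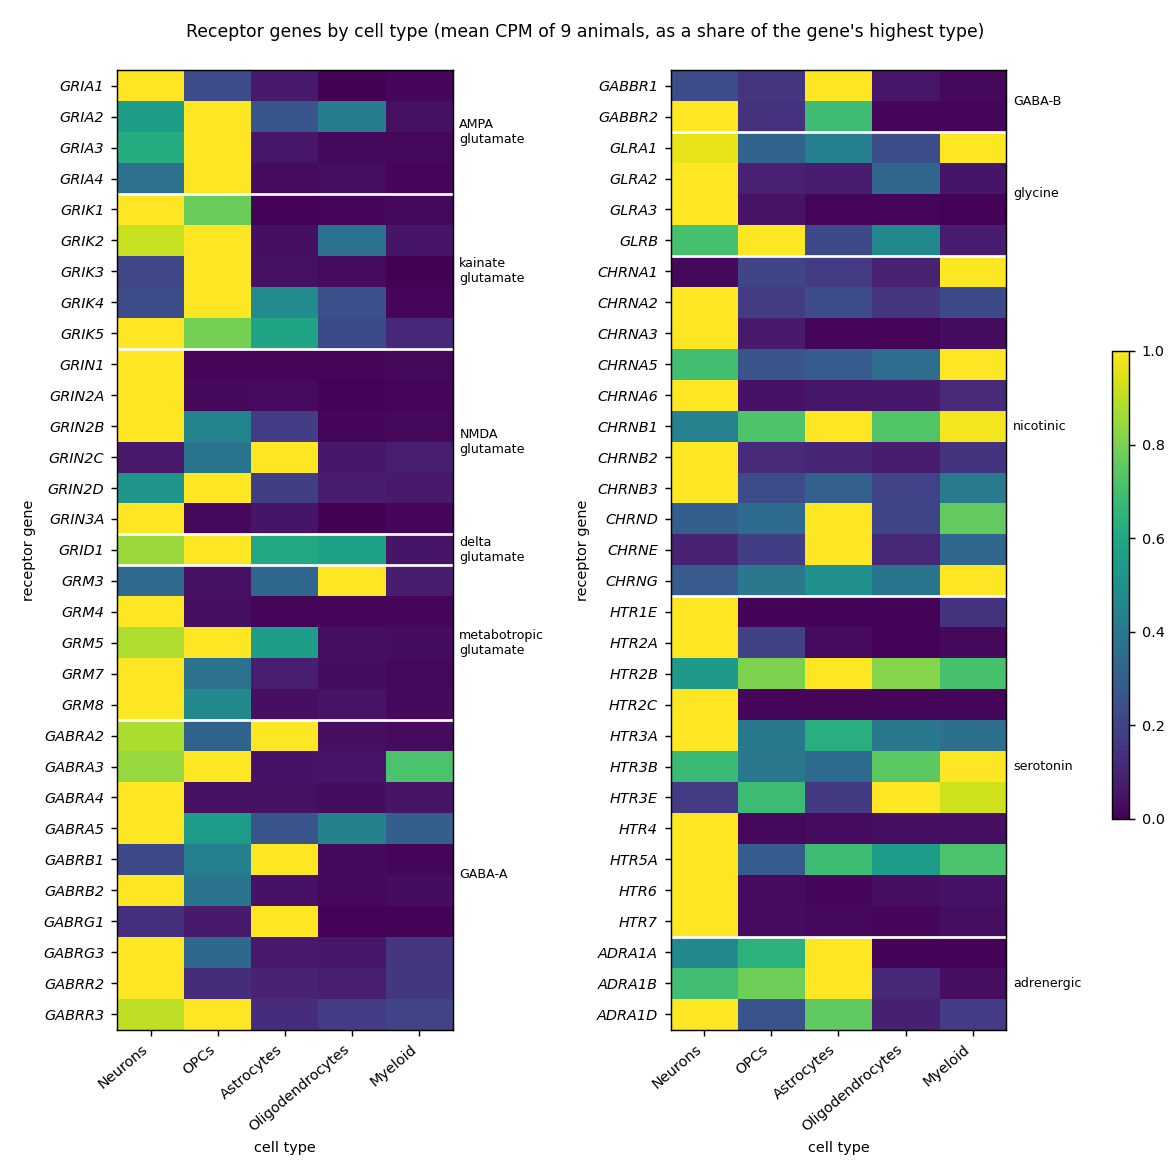
Each row is 1 of 62 receptor genes with at least 100 UMIs and each column a cell type. The colour is the mean CPM of 9 animals divided by the gene's highest type, so 1 marks the highest type. The AMPA and kainate glutamate genes are bright in OPCs and neurons, most NMDA and serotonin genes in neurons, and GABRB1, GABRG1 and GABBR1 in astrocytes.

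Among the AMPA receptor subunits, 3 of 4 were highest in OPCs. GRIA2, the subunit that limits calcium entry, was at 1199 ± 101 CPM in OPCs (SD, n = 9 animals), 668 ± 245 in neurons, 501 ± 71.1 in oligodendrocytes and 319 ± 45.0 in astrocytes, and OPCs were highest in 9 of 9 animals. GRIA4 was at 2309 ± 1039 CPM in OPCs and 868 ± 298 in neurons. GRIA3 was at 414 ± 62.5 CPM in OPCs and 256 ± 123 in neurons. GRIA1 was the exception, with 813 ± 340 CPM in neurons against 185 ± 44.9 in OPCs. Kainate receptor genes were shared between the same pair of types. GRIK3 (272 ± 79.0 CPM) and GRIK4 (625 ± 115 CPM) were highest in OPCs in 9 of 9 animals. GRIK1, GRIK2 and the delta receptor gene GRID1 differed between OPCs and neurons by less than the spread over animals, with GRIK2 at 1773 ± 265 CPM in OPCs and 1625 ± 603 in neurons. GRIK5, which needs a partner subunit to form a channel, was the most evenly spread of the kainate genes, from 114 ± 34.5 CPM in neurons to 12.9 ± 4.89 in myeloid cells.

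NMDA receptors need the obligatory subunit GRIN1, and GRIN1 was almost confined to neurons. It reached 199 ± 88.4 CPM there, 48.0 times the next type, and between 2.81 and 4.13 CPM in each of the 4 glial types. GRIN2A (588 ± 189 CPM, 34.4 times the next type) and GRIN3A (136 ± 94.05 CPM, 17.7 times) were highest in neurons in 9 of 9 animals. GRIN2B was also highest in neurons (707 ± 284 CPM), with 319 ± 30.0 in OPCs and 129 ± 63.8 in astrocytes. GRIN2D, a subunit of early development and interneurons, was highest in OPCs at 64.1 ± 11.4 CPM. GRIN2C had its highest mean in astrocytes (22.2 ± 36.0 CPM), and there its spread over animals exceeded its mean.

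Of the metabotropic glutamate receptors, GRM3 was the receptor gene with most UMIs of all 82. It was highest in oligodendrocytes, at 1277 ± 139 CPM against 437 ± 182 in neurons and 426 ± 548 in astrocytes. GRM5, which couples to calcium release, did not separate OPCs (1790 ± 211 CPM) from neurons (1574 ± 258), and astrocytes followed at 994 ± 681. GRM4 (69.3 ± 52.5 CPM), GRM7 (1034 ± 479 CPM) and GRM8 (361 ± 314 CPM), presynaptic receptors that lower transmitter release, were highest in neurons.

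GABA-A receptor genes were highest in neurons for 8 genes, in astrocytes for 3 and in OPCs for 2. GABRA4 (54.5 ± 54.1 CPM) was neuronal, at 18.5 times the next type. GABRB1 and GABRG1, subunits typical of astrocytes and precursors, were highest in astrocytes in 9 of 9 animals, at 1820 ± 577 and 243 ± 68.9 CPM. GABRA2 did not separate astrocytes (283 ± 214 CPM) from neurons (249 ± 80.2). GABRA3 was at 80.99 ± 14.7 CPM in OPCs, 68.4 ± 34.7 in neurons and 57.9 ± 13.4 in myeloid cells, and at 3.82 and 4.45 CPM in astrocytes and oligodendrocytes. Of the 2 subunits that GABA-B receptors need, GABBR1, the ligand-binding subunit, was highest in astrocytes (719 ± 153 CPM, 9 of 9 animals). GABBR2, the signalling subunit, had 472 ± 398 CPM in neurons and 325 ± 237 in astrocytes.

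The glycine receptor beta subunit GLRB, which anchors the channel to gephyrin, was highest in OPCs in 9 of 9 animals (141 ± 32.0 CPM), with 100.1 ± 43.9 in neurons and 66.3 ± 24.7 in oligodendrocytes. The channel-forming subunits GLRA2 (35.8 ± 23.5 CPM) and GLRA3 (25.7 ± 27.0 CPM) were highest in neurons. Oligodendrocytes came next for GLRA2, at 11.8 ± 7.80 CPM, and GLRA1 did not exceed 4.15 CPM in any type on average. Nicotinic genes were low throughout. CHRNA3 was at 18.8 ± 20.9 CPM in neurons, and no other nicotinic gene averaged above 6.07 CPM in any of the 5 types. CHRNE (2.29 ± 2.47 CPM) was highest in astrocytes and CHRNA1 (1.82 ± 3.60 CPM) in myeloid cells, with SDs larger than the means. CHRND and CHRNB1 were highest in astrocytes and CHRNG and CHRNA5 in myeloid cells, none above 3.43 CPM on average.

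Serotonin receptor genes had their highest mean in neurons for 8 of 11 genes, though for some of the 8 the level was low and the order not settled. HTR2C (135 ± 152 CPM, 55.6 times the next type), HTR7 (67.4 ± 56.4 CPM, 26.6 times), HTR4 (83.0 ± 106 CPM, 24.4 times) and HTR6 (2.46 ± 2.56 CPM, 21.1 times) led them, and HTR2A was at 35.2 ± 35.7 CPM. Over only the animals with at least 20 neurons, which form cluster 11, HTR2C averaged 91.6 CPM. HTR3B had its highest mean in myeloid cells (0.295 CPM) and HTR3E in oligodendrocytes (0.234 CPM). HTR2B differed, since its mean lay between 4.99 and 9.23 CPM in all 5 types. Of the alpha-1 adrenergic receptors, ADRA1A was at 195 ± 86.4 CPM in astrocytes, 126 ± 38.4 in OPCs and 93.9 ± 68.1 in neurons, and ADRA1B at 15.1 ± 9.50, 11.7 ± 6.34 and 10.4 ± 6.25.

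Within types, the clusters differed in their receptor genes. Cluster 13, 366 nuclei that the authors named OPCs, was the highest cluster for GRIK2 (3302 CPM, against 1658 in the neuron cluster 11), GRID1 (1964 against 768), GRIA2 (1860 against 1134 in the main OPC cluster 4), GRIK4 (973 against 588), GRIK3 (381 against 259) and GLRB (216 against 134). GRM5 and GRIA4 were instead highest in cluster 4, where GRM5 had 1930 CPM. Cluster 15, 213 nuclei named unknown, was the highest for GRM8 (4237 CPM, against 366 in cluster 11), GRM7 (3421 against 966) and GRM3 (3059 against 1497 in the oligodendrocyte cluster 1). These means rest on the 4 animals with at least 20 nuclei in cluster 15, in which GRM8 ranged from 2497 to 6621 CPM. Cluster 16, 118 nuclei also named unknown, was highest for HTR2C (304 CPM against 91.6 in cluster 11) and rests on 2 animals. Over the 7 oligodendrocyte clusters the mean of GLRA2 ranged only from 8.69 to 14.9 CPM.

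**Figure D2:**
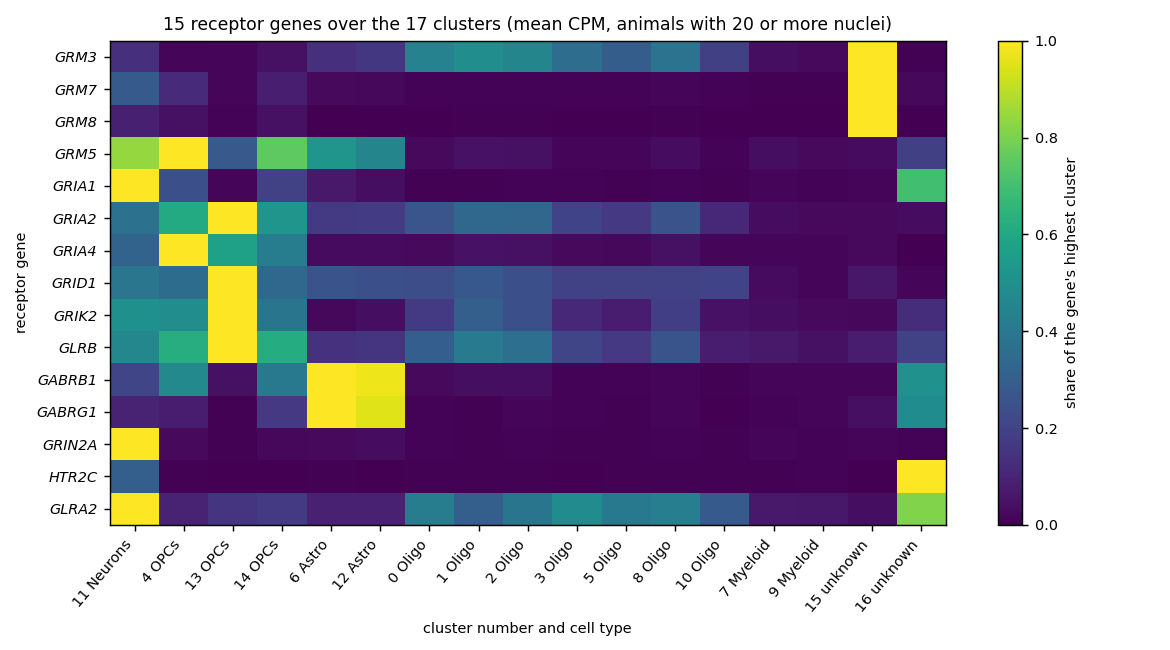
Rows are 15 receptor genes and columns the 17 clusters with their cell type. The colour is the mean CPM over animals with at least 20 nuclei in that cluster, divided by the gene's highest cluster. Cluster 13 stands out for GRIA2, GRID1, GRIK2 and GLRB, cluster 15 for GRM3, GRM7 and GRM8, and cluster 16 for HTR2C.

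Several receptor genes, chosen after their values were seen, varied over animals with the regional score. All 3 OTV animals had a score below 0, as did 1 saline and 2 ASO animals, so score and treatment are in part confounded. In astrocytes GRM3 was at 499.6, 85.3 and 1587 CPM in the saline animals, 39.5, 173 and 1088 CPM in the ASO animals and 127, 130 and 101 CPM in the OTV animals. The 3 animals with a score above 0 held the 3 highest levels. GRIN2C in astrocytes showed the same order, at 29.3, 1.61 and 100.5 CPM in the saline animals, 0.287, 4.39 and 61.8 CPM in the ASO animals and 0.498, 1.77 and 0 CPM in the OTV animals. GABBR2 in astrocytes was lowest where GRM3 was highest, with 203, 513 and 13.2 CPM, then 166, 339.7 and 2.38 CPM, then 539, 534 and 615 CPM, so that every OTV animal also lay above both other groups. In OPCs GRIA4 was at 2243, 2834 and 228 CPM, then 3217, 3572 and 1115 CPM, then 2631, 2373 and 2571 CPM, with the lowest levels in saline replicate 3 and ASO replicate 3. None of these passed the test for OTV against saline in that type. ASO replicate 2 (-1.25) and saline replicate 1 (0.63) lay between the lowest and the highest scores. No correlation over animals is given, since score and treatment are in part confounded.

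**Figure D3:**
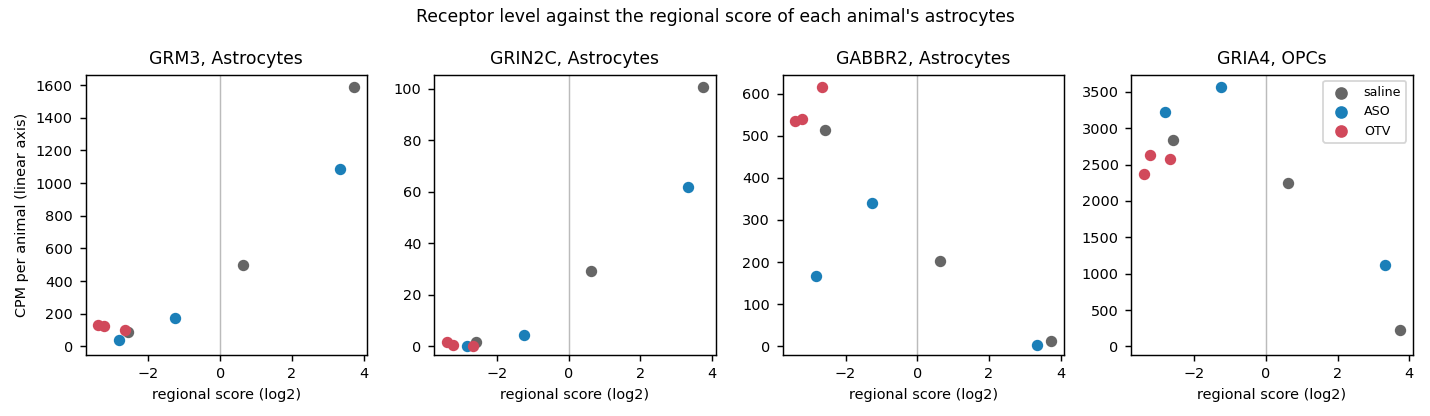
Each panel shows 1 receptor gene in 1 cell type, with the regional score of each animal on the horizontal axis and its CPM on a linear vertical axis. Points are the 9 animals, coloured by group. GRM3 and GRIN2C are highest in the 3 animals with a score above 0, and GABBR2 in astrocytes and GRIA4 in OPCs are lowest in the 2 animals with a score above 3.3.

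The next comparison set receptor genes after intrathecal ASO against those after saline given by vein. UMIs were summed per animal and type, and a gene was called at a Benjamini-Hochberg adjusted p under 0.05 over all genes of the type in edgeR's quasi-likelihood test. In the 4 glial types 187 pairs of a receptor gene and a type could be tested, which cover all 67 genes with at least 100 UMIs. For ASO against saline 1 of them was called. GABRR3, a GABA-rho subunit, was higher in OPCs, at 0.445, 0.542 and 0 CPM in the saline animals and 7.43, 9.29 and 2.76 CPM in the ASO animals, without overlap. Its log2 fold change was 3.92 ± 0.62 (SE; adjusted p = 0.0309 by edgeR's quasi-likelihood test), and the call was lost in 6 of 9 fits that left out 1 animal, namely ASO replicates 1 and 2, saline replicates 1 and 2 and OTV replicates 2 and 3. The background, the share of all tested genes called, was 0.394% in oligodendrocytes, 0.262% in OPCs, 0.0147% in astrocytes and 0.197% in myeloid cells. At an unadjusted p under 0.05 by edgeR, 8 of 66 receptor genes passed in oligodendrocytes, 9 of 45 in OPCs, 3 of 40 in astrocytes and 4 of 36 in myeloid cells. Of all genes tested 11.9%, 9.61%, 6.1% and 10.3% passed that threshold in these types. DESeq2's Wald test called 6 pairs, and the share of all genes it called is not given here. The median log2 fold change of the receptor genes was -0.33, -0.04, -0.14 and -1.09 in these types. Over all genes tested it was 0.01, 0.01, -0.0002 and -0.003.

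For OTV against saline 33 of the 187 pairs were called, 20 higher and 13 lower in OTV, over 21 genes. The called shares were close to the background in each type. In oligodendrocytes 10 of 66 receptor genes tested were called (4 higher, 6 lower) where 19.2% of all genes were. In OPCs it was 12 of 45 (9 higher, 3 lower) where the background was 22.1%, in astrocytes 7 of 40 (4 higher, 3 lower) at 15.4%, and in myeloid cells 4 of 36 (3 higher, 1 lower) at 12%. The median log2 fold change of the receptor genes was -0.15, 0.24, 0.13 and 0.29 in these types, beside -0.02, -0.01, -0.02 and -0.03 over all genes tested. Of the 33 calls, 16 held in each of the fits that left out 1 animal, 20 held with a term for the regional score and 11 with the 6 animals of score below 0. The count fell to 21 without saline replicate 1, and the share of all genes called in that fit is not given here.

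**Figure D4:**
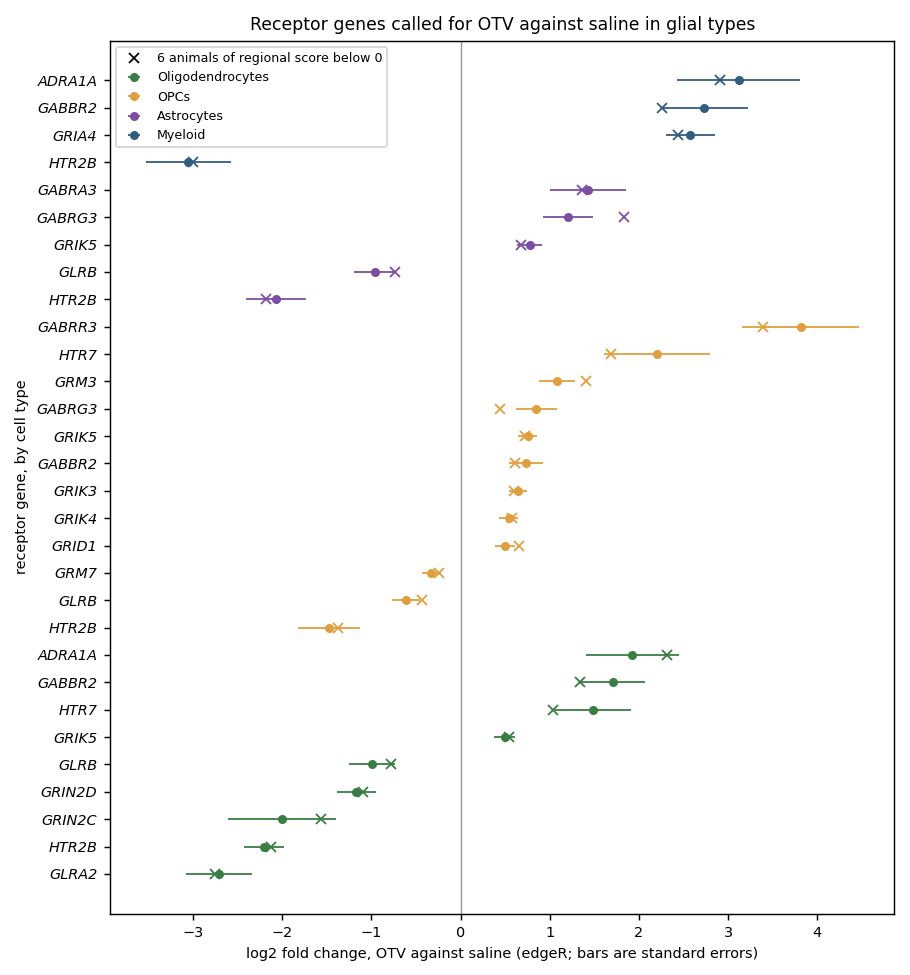
Points are the edgeR log2 fold changes of 30 of the called pairs for OTV against saline, with standard errors as bars, grouped by glial type in colour. Crosses are the same fold changes among the 6 animals of regional score below 0. Every cross lies on the same side of 0 as its point, and HTR2B lies left of -1 in all 4 types. The crosses reuse animals of the points, whose groups did not overlap, so the shared side adds no support.

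HTR2B, the serotonin 2B receptor, was the gene called in most types, lower in OTV in all 4. In oligodendrocytes it was at 9.57, 9.34 and 10.6 CPM in the saline animals, 10.2, 8.35 and 13.7 CPM in the ASO animals and 1.87, 2.44 and 1.88 CPM in the OTV animals. The OTV animals lay below both other groups without overlap, and the log2 fold change against saline was -2.21 ± 0.23 (adjusted p = 0.000588, edgeR's quasi-likelihood test). In myeloid cells HTR2B was at 10.4, 9.55 and 8.63 CPM, then 8.17, 8.45 and 11.1 CPM, then 1.57, 0.895 and 0 CPM, a log2 fold change of -3.06 ± 0.48. In astrocytes the values were 12.5, 11.7 and 7.14 CPM, then 12.9, 13.2 and 18.7 CPM, then 2.49, 1.77 and 2.60 CPM (-2.07 ± 0.34), and in OPCs 8.15, 8.68 and 10.99 CPM, then 10.4, 5.94 and 13.1 CPM, then 3.22, 3.55 and 2.67 CPM (-1.47 ± 0.35). HTR2B overlaps PSMD1, a proteasome gene, in the reference table. PSMD1 did not move with it in oligodendrocytes (log2 fold change -0.05 ± 0.08), OPCs (-0.14 ± 0.10) or astrocytes (0.06 ± 0.18), and fell in myeloid cells by 0.54 ± 0.12 on the log2 scale (adjusted p = 0.0151, edgeR). Among the 6 animals of score below 0 the HTR2B calls held in oligodendrocytes, myeloid cells and astrocytes and not in OPCs, where the log2 fold change was -1.38 (adjusted p = 0.0858, edgeR).

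**Figure D5:**
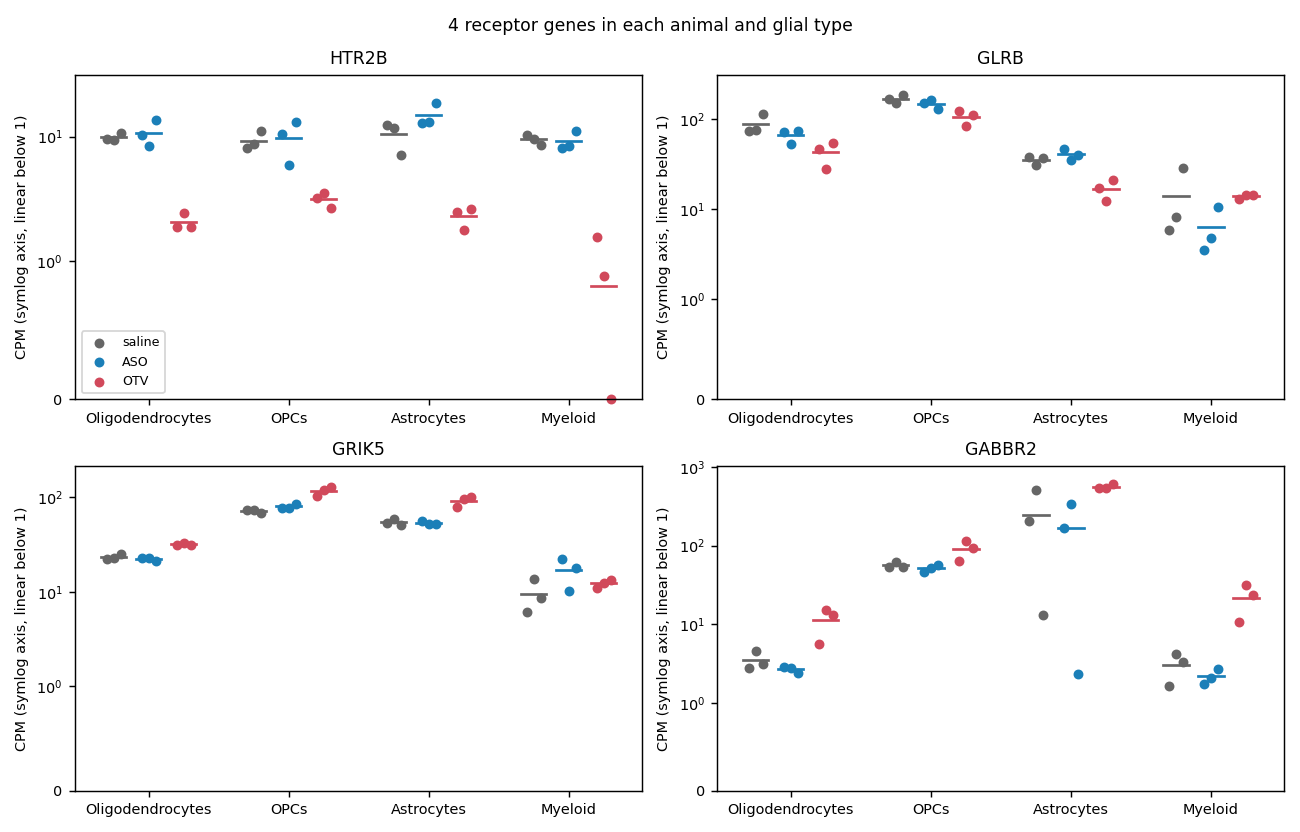
Points are the CPM of each animal for HTR2B, GLRB, GRIK5 and GABBR2 in the 4 glial types, with the mean of each group as a short line. The vertical axis is linear below 1 and logarithmic above it. The OTV animals lie below both other groups for HTR2B in all 4 types and above them for GRIK5 in oligodendrocytes, OPCs and astrocytes.

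Of the 5 kainate receptor genes GRIK5, GRIK3 and GRIK4 were called, all higher in OTV, and GRIK1 and GRIK2 were not called in a glial type. GRIK5 was higher in 3 types. In OPCs it was at 73.0, 74.1 and 68.4 CPM in the saline animals, 77.5, 77.8 and 86.3 CPM in the ASO animals and 104, 120.4 and 129 CPM in the OTV animals (log2 fold change against saline 0.75 ± 0.11, adjusted p = 0.000832 by edgeR's quasi-likelihood test). In astrocytes GRIK5 was at 53.5, 59.8 and 51.1 CPM, then 55.9, 52.1 and 52.5 CPM, then 79.0, 95.8 and 100.01 CPM (0.77 ± 0.14), and in oligodendrocytes at 22.2, 22.8 and 25.2 CPM, then 22.8, 22.8 and 21.3 CPM, then 31.2, 33.1 and 31.2 CPM (0.49 ± 0.11). OTV lay above both other groups in all 3 types, and in OPCs the ASO animals also lay above the saline animals. In myeloid cells the change of GRIK5 was 0.28 on the log2 scale and was not called. GRIK3 and GRIK4 were higher in OPCs. GRIK3 was at 229, 257 and 254 CPM, then 211, 199 and 184 CPM, then 389.6, 376 and 351 CPM (0.64 ± 0.10), and GRIK4 at 541, 538 and 555 CPM, then 604, 551 and 538 CPM, then 727, 862 and 708 CPM (0.54 ± 0.11). The call of GRIK4 did not hold among the 6 animals of score below 0 (log2 fold change 0.57, adjusted p = 0.0813, edgeR), where those of GRIK5 and GRIK3 in OPCs did. GRIK5 was not called among those animals in astrocytes (0.68, adjusted p = 0.183, edgeR) or oligodendrocytes (0.54, adjusted p = 0.151, edgeR). In oligodendrocytes its call was also lost with the regional term (adjusted p = 0.0654, edgeR) and without saline replicate 1, saline replicate 2 or OTV replicate 2.

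Other glutamate receptor genes were called in 1 type each. GRIA4 in myeloid cells was at 10.4, 17.7 and 20.6 CPM in the saline animals, 10.7, 7.13 and 9.98 CPM in the ASO animals and 86.5, 124 and 83.6 CPM in the OTV animals, a log2 fold change of 2.57 ± 0.27 (adjusted p = 0.000565, edgeR's quasi-likelihood test). Both myeloid clusters, 7 and 9, showed it. GRIA4 in myeloid cells stayed far below its OPC level of 2373 to 2631 CPM in the same OTV animals. The summed level of the OPC markers (5 of 5 listed present) in myeloid nuclei was 61.0 to 334.6 CPM in saline, 52.6 to 112 CPM in ASO and 171 to 258 CPM in OTV, against 9681 to 14424 CPM in OPCs. At most 1 of these markers was at 0 in a library, CSPG4 in ASO replicate 1 and in OTV replicate 2. Saline replicate 3 held the highest of the saline sums, 334.6 CPM, and its OPCs were at 228 CPM of GRIA4. The part of OPC RNA in the myeloid GRIA4 level was not tested.

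GRM3 rose in OPCs from 36.6, 34.1 and 57.4 CPM in the saline animals to 84.7, 86.6 and 89.2 CPM in the OTV animals, with 45.8, 35.1 and 49.2 CPM in the ASO animals (1.08 ± 0.20, adjusted p = 0.00312 by edgeR's quasi-likelihood test). OTV lay above both other groups, which overlapped. In oligodendrocytes, the type with most GRM3, its change was 0.09 on the log2 scale and was not called. The oligodendrocyte markers (5 of 6 listed present, none at 0) summed to 359 to 587 CPM in OPCs of the saline animals, 733 to 999.7 CPM in ASO and 660 to 994 CPM in OTV, and their part in this result was not tested. GRID1 rose in OPCs (0.50 ± 0.12) and GRM7 fell there by 0.33 ± 0.11, each on the log2 scale. The GRID1 call was lost without saline replicate 2. The GRM7 call was lost in 6 of 9 fits that left out 1 animal, all but those without ASO replicate 2, saline replicate 2 or saline replicate 3, with the regional term (adjusted p = 0.118, edgeR) and among the 6 animals of score below 0 (adjusted p = 0.395, edgeR). In oligodendrocytes GRIN2D fell from 5.81, 5.81 and 6.67 CPM in saline to 2.30, 3.23 and 2.31 CPM in OTV, with 5.70, 5.33 and 6.97 CPM in ASO (-1.17 ± 0.22). That call did not hold among the 6 animals of score below 0 (-1.10, adjusted p = 0.110, edgeR). GRIN2C also fell there (-2.00 ± 0.61), from levels of 0.834 to 2.74 CPM, and its call was lost in 6 of 9 fits that left out 1 animal. The GRIN2C call was also lost with the regional term (-1.45, adjusted p = 0.153, edgeR). Among the 6 animals of score below 0 its log2 fold change was -1.57.

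The GABA receptor genes that were called were higher in OTV. GABBR2 was higher in OTV in myeloid cells (1.68 to 4.21 CPM in saline, 1.78 to 2.69 in ASO, 10.7 to 31.3 in OTV), in oligodendrocytes (2.81 to 4.62, 2.40 to 2.85 and 5.73 to 15.2 CPM) and in OPCs (53.3 to 61.7, 46.6 to 56.9 and 63.6 to 116 CPM). The log2 fold changes against saline were 2.73 ± 0.49, 1.71 ± 0.36 and 0.73 ± 0.19, and among the 6 animals of score below 0 they were 2.26, 1.34 and 0.61 and none was called (adjusted p = 0.0733, 0.212 and 0.242, edgeR's quasi-likelihood test). The OPC call was also lost without saline replicate 1, OTV replicate 2 or OTV replicate 3, and the oligodendrocyte call with the regional term (adjusted p = 0.0516, edgeR). Astrocytes, in which GABBR2 was at 534 to 615 CPM in OTV and at 13.2 to 513 CPM in saline, did not pass the test. The astrocyte markers (6 of 6 listed present, none at 0) summed in myeloid nuclei to 1892 to 2548 CPM in saline, 783 to 1210 CPM in ASO and 683 to 1616 CPM in OTV. Most of this was SLC1A3, a glutamate transporter. The other 5 summed to 31.6, 57.3 and 156 CPM in the saline animals, 52.6, 20.6 and 58.3 CPM in the ASO animals and 69.2, 96.6 and 169 CPM in the OTV animals, and their part in the GABBR2 result was not tested. GABBR1 was not called in any glial type for OTV against saline, with log2 fold changes of 0.12 to 0.95. GABRR3 rose in OPCs to 6.98, 3.55 and 5.88 CPM in the OTV animals (3.81 ± 0.65 against saline), near its level in the ASO animals. In astrocytes GABRG3 (1.20 ± 0.28) and GABRA3 (1.43 ± 0.43) were higher, and GABRG3 was also higher in OPCs (0.85 ± 0.23). The astrocyte call of GABRA3 was lost in 8 of 9 fits that left out 1 animal, all but that without ASO replicate 2. The OPC call of GABRG3 was lost in 5, those without saline replicate 1, saline replicate 3 or any of the OTV animals. The astrocyte call of GABRG3 was lost without OTV replicate 3. Neither GABRA3 in astrocytes nor GABRG3 in OPCs held with the regional term (adjusted p = 0.0623 and 0.0710, edgeR) or among the 6 animals of score below 0 (adjusted p = 0.261 and 0.183, edgeR). GABRB1 was not called in a glial type.

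The glycine receptor genes called were all lower in OTV. GLRA2 in oligodendrocytes was at 20.2, 21.6 and 20.2 CPM in the saline animals, 12.9, 8.51 and 13.5 CPM in the ASO animals and 2.59, 5.06 and 1.61 CPM in the OTV animals. The 3 groups did not overlap, with ASO between the others, and OTV differed from saline by a log2 fold change of -2.71 ± 0.37 (adjusted p = 0.00151, edgeR's quasi-likelihood test). In each of the 7 oligodendrocyte clusters the OTV values of GLRA2 lay below the saline values, over the animals with at least 20 nuclei. FANCB, a DNA repair gene whose span GLRA2 overlaps in the reference table, changed by -0.32 ± 0.23 in oligodendrocytes and was not called. GLRB was lower in oligodendrocytes (74.2 to 116 CPM in saline, 52.8 to 74.2 in ASO, 28.1 to 54.4 in OTV; -0.99 ± 0.26), astrocytes (30.8 to 38.6, 35.1 to 47.1 and 12.4 to 21.1 CPM; -0.96 ± 0.23) and OPCs (152 to 188, 129 to 163 and 83.5 to 125 CPM; -0.61 ± 0.16). None of the GLRB calls held with the term for the regional score (log2 fold changes -0.75, -0.90 and -0.58, adjusted p = 0.130, 0.0648 and 0.0627, edgeR), and among the 6 animals of score below 0 the log2 fold changes were -0.78, -0.74 and -0.44 and none was called (adjusted p = 0.237, 0.280 and 0.227, edgeR). The calls were also lost without saline replicate 3, OTV replicate 1 or OTV replicate 2 in oligodendrocytes, without saline replicate 1, saline replicate 3 or OTV replicate 1 in astrocytes, and without OTV replicate 2 in OPCs.

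Low-level genes of the adrenergic and serotonin receptors were also called. ADRA1A was higher in oligodendrocytes (1.93 ± 0.52, from 0.772 to 1.88 CPM in saline to 2.62 to 5.59 CPM in OTV) and myeloid cells (3.12 ± 0.69), low levels that lay far under those of astrocytes. HTR7 was higher in OPCs (2.20 ± 0.59) and oligodendrocytes (1.49 ± 0.43), and there too no OTV animal exceeded 7.11 CPM. The HTR7 calls did not hold with the regional term (adjusted p = 0.0685 and 0.124, edgeR) or among the 6 animals of score below 0 (adjusted p = 0.220 and 0.361, edgeR). The call in oligodendrocytes was lost in 7 of 9 fits that left out 1 animal, all but those without saline replicate 2 or OTV replicate 1, and that in OPCs without saline replicate 1, OTV replicate 2 or OTV replicate 3. The ADRA1A calls were lost in both types without saline replicate 1, saline replicate 2 or OTV replicate 3, and among the 6 animals of score below 0 (adjusted p = 0.115 in oligodendrocytes and 0.146 in myeloid cells, edgeR).

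OTV against ASO gave 47 calls of 187 pairs, 35 higher and 12 lower in OTV, over 30 genes. This contrast shares its OTV animals with the one against saline, so the calls are not independent of it. In oligodendrocytes 17 of 66 receptor genes were called (10 higher, 7 lower; background 26.3%), in OPCs 15 of 45 (13 higher, 2 lower; 27.2%), in astrocytes 8 of 40 (6 higher, 2 lower; 22.0%) and in myeloid cells 7 of 36 (6 higher, 1 lower; 20.5%). The median log2 fold change of the receptor genes was 0.37, 0.42, 0.09 and 1.68 in these types. Over all genes tested it was -0.006, -0.003, -0.03 and -0.02. HTR2B was again lower in all 4 types (log2 fold changes -2.29, -1.53, -2.51 and -2.96 in oligodendrocytes, OPCs, astrocytes and myeloid cells). GRIK3 in OPCs (1.01 ± 0.10, adjusted p = 6.84e-05) and GRIA4 in myeloid cells (3.40 ± 0.28, adjusted p = 0.000125) had the smallest adjusted p by edgeR's quasi-likelihood test. GLRA2 (-1.83 ± 0.36) and GRIN2D (-1.12 ± 0.22) were lower in oligodendrocytes. GRIK5 was higher in the same 3 types as against saline (0.60, 0.64 and 0.87 in oligodendrocytes, OPCs and astrocytes), and GABBR2 in oligodendrocytes, OPCs and myeloid cells (2.15, 0.90 and 3.23).

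Further genes were called against ASO, most of them higher in OTV. GRIK4 was higher in astrocytes (1.25 ± 0.29) and myeloid cells (2.24 ± 0.48) as well as OPCs (0.54 ± 0.11). The OPC markers summed in myeloid nuclei to 52.6 to 112 CPM in ASO, 171 to 258 CPM in OTV and 61.0 to 334.6 CPM in saline. Their part in the myeloid GRIK4 result was not tested. GRID1 was higher in astrocytes (0.81 ± 0.18), OPCs (0.47 ± 0.12) and oligodendrocytes (0.96 ± 0.27), and GABRA3 in the same 3 types (1.45, 0.62 and 1.41). GABRG3 in oligodendrocytes (2.24 ± 0.47), HTR2A in OPCs (1.59 ± 0.39), GLRA3 in oligodendrocytes (1.81 ± 0.42), CHRNE in astrocytes (3.02 ± 0.79) and ADRA1B in astrocytes (1.74 ± 0.52) were higher. The ADRA1B values of OTV and ASO overlapped, and that call was lost in 6 of 9 fits that left out 1 animal. GRM4 was higher in OPCs (1.61 ± 0.51) and oligodendrocytes (1.36 ± 0.42), and GRIK1 in OPCs (0.49 ± 0.14). GABRA5 was lower in OPCs (-0.93 ± 0.24), at 32.2, 33.8 and 18.5 CPM in the ASO animals, 14.5, 14.7 and 11.8 CPM in the OTV animals and 13.2, 15.1 and 16.2 CPM in the saline animals, so that the ASO animals stood apart from both. Of the 47 calls 28 held in each fit that left out 1 animal. Those of GRM4 in both types, CHRNE, GRIK1, GABRA5, GRID1 in OPCs and oligodendrocytes and GABRA3 in astrocytes did not. Myeloid GABBR1 (2.36 ± 0.67) and GRM3 (2.41 ± 0.68) were higher than in ASO. The GABBR1 call was lost in 5 of 9 such fits, without ASO replicate 1, ASO replicate 2 or any OTV animal, and the GRM3 call in 6, without any of the ASO or OTV animals. The astrocyte markers other than SLC1A3 in myeloid nuclei, given above, were at 20.6 to 58.3 CPM in ASO and 69.2 to 169 CPM in OTV, and their part in the GABBR1 result was not tested. GRM3 was at 176, 217 and 165 CPM in myeloid nuclei of the OTV animals, where the oligodendrocyte markers summed to 938 to 1475 CPM, against 784 to 1294 CPM in ASO and 623 to 791 CPM in saline, and their part was not tested. The count of 47 became 31 without ASO replicate 1, and 73 with the term for the regional score. The share of all genes called in those fits is not given here, so these counts are not a result about receptor genes alone. With that term 6 of the 47 calls were lost, and 14 among the 6 animals of score below 0. GABRG3, GLRA3 and GABRA3 in oligodendrocytes (adjusted p = 0.0561, 0.0615 and 0.0605, edgeR), GRIK5 there (adjusted p = 0.0504, edgeR), GABRA3 and ADRA1B in astrocytes, GRIK1 in OPCs, and GRM4 in OPCs and oligodendrocytes were among the 14.

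Whether a change differed between the 4 glial types was tested as an interaction of type and treatment with the animal as a block, over 55 receptor genes. For OTV against saline 2 passed, GLRA2 (adjusted p = 0.0246, edgeR's quasi-likelihood test) among them, where 3.53% of all genes did. Neither remained without saline replicate 1 or without saline replicate 2 (0 calls), and 8 passed without saline replicate 3. For OTV against ASO 11 passed (background 10.4%), GRIK5 (adjusted p = 0.0138, edgeR) among them, and between 3 and 15 when 1 animal was left out, with 3 without ASO replicate 1, ASO replicate 2, OTV replicate 1 or OTV replicate 3 and 4 without OTV replicate 2. For ASO against saline 0 passed by edgeR, where 0.957% of all genes did. At an unadjusted p under 0.05 by edgeR 6 of the 55 passed, and the share of all genes at that threshold is not given here. DESeq2 was not run for the interaction. HTR2B was not among the genes that passed.

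Neurons were tested apart, since they numbered 364, 23 and 527 in the saline animals, 18, 17 and 467 in the ASO animals and 98, 112 and 88 in the OTV animals. PDE10A in them was highest in the 3 animals with a regional score above 0. In ASO replicate 2, with a score below 0, PDE10A was at 1234 CPM and SLC17A6 at 0 CPM. The endothelial marker FLT1 was also found in nuclei named neurons, at 303 CPM in saline replicate 2, 821 CPM in ASO replicate 1 and 741 CPM in OTV replicate 1, and at 0 to 118 CPM in the others. For OTV against saline 7 of 45 receptor genes were called (3 higher, 4 lower), where 6.82% of all genes were. CHRNA3 (3.76, 0 and 2.21 CPM in saline, 33.2, 62.1 and 30.8 CPM in OTV), GRM4 (37.9, 38.3 and 48.6 against 120.3, 141 and 151 CPM) and HTR2A (14.3, 38.3 and 12.5 against 74.7, 51.0 and 105 CPM) were higher. GLRB (156, 105 and 166 against 47.0, 54.9 and 48.7 CPM), GRM7 (1570, 1468 and 1385 against 491, 713 and 219 CPM) and GABRA4 (99.5, 35.1 and 136 against 5.53, 9.80 and 3.25 CPM) were lower. The groups did not overlap for any of the 7, as for 33 of the 33 called pairs in glia. Genes called with 3 animals per group tend to separate, and the share over all genes is not given here, so this adds no support. None remained called without saline replicate 1, without saline replicate 3, without OTV replicate 3 or among the 6 animals of score below 0, and only GRM4 did with the regional term. Striatal and thalamic neurons in unequal parts and a change within neurons cannot be told apart here.

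Against ASO, neurons of the OTV animals had 4 calls of 45, all higher (GRM4, HTR2A, GRIN1 and GRID1; background 5.23%), and 0 calls without ASO replicate 3 or OTV replicate 3. These 4 calls were also lost without ASO replicate 2. GRIN1 was at 277, 246 and 381 CPM in OTV against 97.4, 146 and 133 CPM in ASO (1.26 ± 0.27, adjusted p = 0.0339 by edgeR's quasi-likelihood test). That call was lost in 8 of 9 fits that left out 1 animal, all but that without saline replicate 2, and among the 6 animals of score below 0 (adjusted p = 0.222, edgeR). For ASO against saline 0 receptor genes were called in neurons by edgeR (background 0.0%) or by DESeq2. At an unadjusted p under 0.05 by edgeR 2 of 45 passed, as did 2.47% of all genes.

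The proteins that assemble, anchor and serve these receptors were counted from lists of 29 glutamate receptor partners, 11 inhibitory receptor partners, 6 acetylcholine receptor partners and 20 genes of transmitter transport and synthesis. For OTV against saline the glutamate partners passed as 0 of 23 in oligodendrocytes, 5 of 20 in OPCs (all higher), 4 of 19 in astrocytes (3 higher, 1 lower) and 1 of 18 in myeloid cells (higher), beside 19.2%, 22.1%, 15.4% and 12% of all genes. In OPCs these included CACNG4, an AMPA auxiliary subunit (0.86 ± 0.12). Inhibitory partners were higher for 2 of 9 in oligodendrocytes, 3 of 9 in OPCs, 1 of 7 in astrocytes and 1 of 8 in myeloid cells, with none lower. NLGN2, which organises inhibitory synapses, rose in OPCs (2.30 ± 0.31), and the chloride importer SLC12A2 rose in OPCs (0.88 ± 0.15), astrocytes (1.30 ± 0.26) and myeloid cells (1.13 ± 0.23). Acetylcholine partners passed for 1 of 4 (oligodendrocytes), 1 of 5 (OPCs) and 1 of 3 (astrocytes), each lower, and for 1 of 2 in myeloid cells, which was higher. The last was BCHE, which cleaves choline esters (1.36 ± 0.39, adjusted p = 0.0459, edgeR), named after its value was seen. RIC3, a chaperone of nicotinic receptors, fell in OPCs (-0.72 ± 0.12), oligodendrocytes (-0.71 ± 0.18) and astrocytes (-0.68 ± 0.18). Of the transport and synthesis genes, 3 of 19 passed in oligodendrocytes (1 higher, 2 lower), 2 of 15 in OPCs (1 and 1), 3 of 15 in astrocytes (1 and 2) and 2 of 15 in myeloid cells (both lower). GAD1, which makes GABA, fell in oligodendrocytes (-1.71 ± 0.17), myeloid cells (-1.89 ± 0.25) and astrocytes (-2.36 ± 0.31), and SLC1A1, a glutamate transporter, fell in oligodendrocytes (-1.41 ± 0.18). In neurons, where 6.82% of all genes passed, 4 of 22 glutamate partners (all higher) and 0 of 8 inhibitory partners did. So did 1 of 3 acetylcholine partners (lower) and 2 of 15 transport and synthesis genes (both higher). For ASO against saline 0 of 239 pairs of a listed gene and a type were called by edgeR, neurons included. By edgeR 35 passed an unadjusted p under 0.05 (2.47% to 11.9% of all genes did in the 5 types). DESeq2 called 7, and the share of all genes it called is not given here.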

How the data were processed

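The submitters' processing notes name Cell Ranger 6.1.2, Seurat 4 and the genome build GRCh38.p13 without saying what each was used for. No annotation is named. The authors deposited raw UMI counts per gene and nucleus, with cell types, cluster numbers and a doublet score. All 79994 nuclei were called singlets by the authors, 689 had a score above 0.25, and the smallest total was 1018 UMIs. Totals in the deposited table equalled the matrix sums in 79994 nuclei.

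Counts were summed per animal and type and fitted with edgeR 4.0.16 in R 4.3.3 (TMM, filterByExpr by group, robust quasi-likelihood, all 9 animals, Benjamini-Hochberg over all genes tested). The script was tested on simulated data. CPM is per 1000000 UMIs of that animal and type, MALAT1 included. Standard errors were derived from each log2 fold change and its F value. The 3 animals of a group are separate animals. The members and lists were chosen with earlier results of these data known. A gene was named if it had at least 100 UMIs and led its type by ratio, was among the first 25 called in a contrast (8 in neurons), or was on a list always named, and other genes, those of the clusters and the regional pattern among them, were chosen after their values were seen. Overlapping and nearest genes come from gene positions in a RefSeq table of the T2T-MFA8v1.1 assembly, which lists all 82 members, and no coordinates are printed. Alternatives were DESeq2 1.42.0 (its test and its size factors), no filter, fewer animals, thinning to equal totals, no nuclei of high doublet score and a term for the regional score. Some receptor genes are counted in the totals and not reported here by name, in the text or the plots.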

Additional observations from a re-analysis of the deposited data

Results flagged for a closer look

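The interaction of cell type and treatment was below an adjusted p of 0.05 for the 11 results given here (edgeR's quasi-likelihood test, animal as a block). It tests whether the change differed between glial types. With 1 animal left out, 0 to 8 receptor genes passed for OTV against saline and 3 to 15 for OTV against ASO, so these results depend on single animals. For OTV against saline GLRA2 (adjusted p = 0.0246) was at -2.71 in oligodendrocytes and 0.49 in OPCs on the log2 scale. For OTV against ASO GRIK5 (adjusted p = 0.0138) was at 0.60 to 0.87 in oligodendrocytes, OPCs and astrocytes and -0.49 in myeloid cells. GLRB (0.0209) was at -1.12 in astrocytes and 1.13 in myeloid cells, and GRIN2D (0.0309) at -1.12 in oligodendrocytes and 0.43 in OPCs. GRIN3A (0.0176) was at 1.87 in oligodendrocytes and -1.16 in astrocytes, and HTR2C (0.0478) at 0.79 in oligodendrocytes and -0.61 in OPCs. The GRIN3A values of OTV and ASO overlapped in oligodendrocytes, and its call there was lost in 6 of 9 fits that left out 1 animal. GABRB1 (0.0177) was at -0.26 in astrocytes and 1.51 in myeloid cells, GABRG1 (0.0342) at -0.49 and 2.33, and GABBR1 (0.0227) at 0.56 and 2.36 in the same pair of types. These 3 genes had their highest level in astrocytes, and the astrocyte markers other than SLC1A3 summed in myeloid nuclei to 20.6 to 58.3 CPM in ASO and 69.2 to 169 CPM in OTV. Their part in these results was not tested. GRIK4 (0.0421) was at 2.24 in myeloid cells and 0.46 in oligodendrocytes, and ADRA1B (0.0450) at 1.74 in astrocytes and -0.84 in oligodendrocytes. GRIK4 and GLRB had their highest level in OPCs, whose markers summed in myeloid nuclei to 52.6 to 112 CPM in ASO and 171 to 258 CPM in OTV. The part of these markers in the GRIK4 and GLRB results was not tested.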

How the results depend on the processing

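No fold change of a called receptor gene changed sign under the alternatives run. For OTV the groups in glia did not overlap in 33 of 33 calls against saline and 44 of 47 against ASO. The alternatives reuse these animals, so a kept sign adds no support. Calls are given in the order ASO minus saline, OTV minus saline, OTV minus ASO, which had 1, 33 and 47 in glia and 0, 7 and 4 in neurons. With the 6 animals of regional score below 0 they were 0, 19 and 60 in glia and 0, 0 and 0 in neurons. With only the compared animals they were 0, 29 and 54, and 0, 11 and 2. DESeq2's Wald test gave 6, 40 and 54, and 0, 13 and 10. Without a filter they were 2, 33 and 43, and 0, 6 and 3, and with the regional term 2, 32 and 73, and 0, 1 and 3. Thinning to equal totals gave 0, 23 and 29, and 0, 0 and 0, from fewer UMIs. Leaving out 1 animal gave 0 to 2, 21 to 36 and 31 to 60 in glia, and 0, 0 to 12 and 0 to 7 in neurons. Interactions then numbered 0, 0 to 8 and 3 to 15. The share of all genes called under each alternative is not given here, so a moved count is not a result about receptor genes alone.

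Receptor genes highest in neurons, OPCs, astrocytes, oligodendrocytes and myeloid cells numbered 35, 13, 11, 2 and 6. With a minimum of 1000 UMIs they were 23, 12, 9, 1 and 1, from fewer genes, and by nuclei with a UMI after thinning 32, 16, 9, 5 and 5. Leaving out 1 animal gave 34 to 37, 11 to 13, 9 to 12, 1 to 2 and 5 to 8. Other causes were not tested. No paired analysis was possible because the labels give no number that links animals of different groups.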
